A study of Mus musculus with 4 samples.

Results

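The cytokines Il1a, Il1b, Tnf, Il6, Il10, Il12b and Il18, the interleukin-1 receptor antagonist gene Il1rn, the NF-kappaB cofactor gene Nfkbiz and the acute phase gene Saa3 were examined in mouse bone marrow-derived macrophages. These 10 genes were taken by their symbols, of 19938 genes with a probeset of 1 symbol, and each had 1 such probeset on the array. Bone marrow cells had been grown for 7 days with L929 fibroblast supernatant, a source of the growth factor M-CSF, then replated and kept for 24 h in medium alone or with the cytokine IL-4, and sorted for the macrophage surface protein that Adgre1 encodes. BALB/c mice gave the wild-type cells, and 4get/Stat6-/- mice the Stat6-deficient cells. These lack STAT6, the factor through which the IL-4 receptor controls transcription, and also carry the 4get reporter allele of the IL-4 gene. Each of the 4 combinations of genotype and culture was 1 array. The loss of Stat6, the 4get allele and any other difference between the mice therefore cannot be told apart. The number of mice behind an array, their age and any pooling of cells are not known from the labels used here. Sample protocols state an IL-4 dose of 10 µg/mL, whereas the series text states 10 mg/mL.

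These genes belong to the inflammatory programme of macrophages. Bacterial products and interleukin-1 act through receptors that share the adaptor MyD88 and release NF-kappaB from its IkappaB inhibitors, after which Tnf and Il1b are transcribed early. A second wave that includes Il6 and Il12b needs the nuclear IkappaB protein encoded by Nfkbiz, which is itself an early target. The product of Il1rn occupies the interleukin-1 receptor without signalling, and IL-10 restrains the programme. IL-4, acting through STAT6, drives macrophages to another state, known as alternative activation.

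Signals are given as log2 of the RMA value, 1 per gene and array, and a difference is a difference of log2 signals, so that 1 is 2-fold. A gene was called changed when the difference was at least 1 in size and the higher array reached a floor of 2.52, the median of all probesets with 1 symbol. With 1 array per group no difference has a replicate check or a test. As a yardstick, the range that held the middle 95% of all tested genes is given for each comparison, which is not a replicate error. The median over all probesets lay between 2.23 and 2.29 on the 4 arrays. The Stat6 signal was 7.34 and 6.68 in wild type in medium and with IL-4, and 4.54 and 4.25 in Stat6-/-, in the direction of the labels. Both Stat6-/- signals were still above the floor, and what they measure was not tested. All 11 macrophage markers on the array reached the floor, among them Adgre1, the gene of the sorted protein, at 9.54 to 10.75. Of the 3 genes of the T cell CD3 complex, Cd3d and Cd3g were at 1.74 or less, and Cd3e lay at 2.44 to 2.70. Of the other T cell markers on the array, Cd2 and Cd8a were under the floor on all 4 arrays. Cd28 was at 6.10 in wild type in medium, 1.31 with IL-4, and 6.43 and 6.00 in Stat6-/-, and Cd4 at 5.59, 3.17, 4.94 and 5.13 in the same order.

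**Figure D1:**
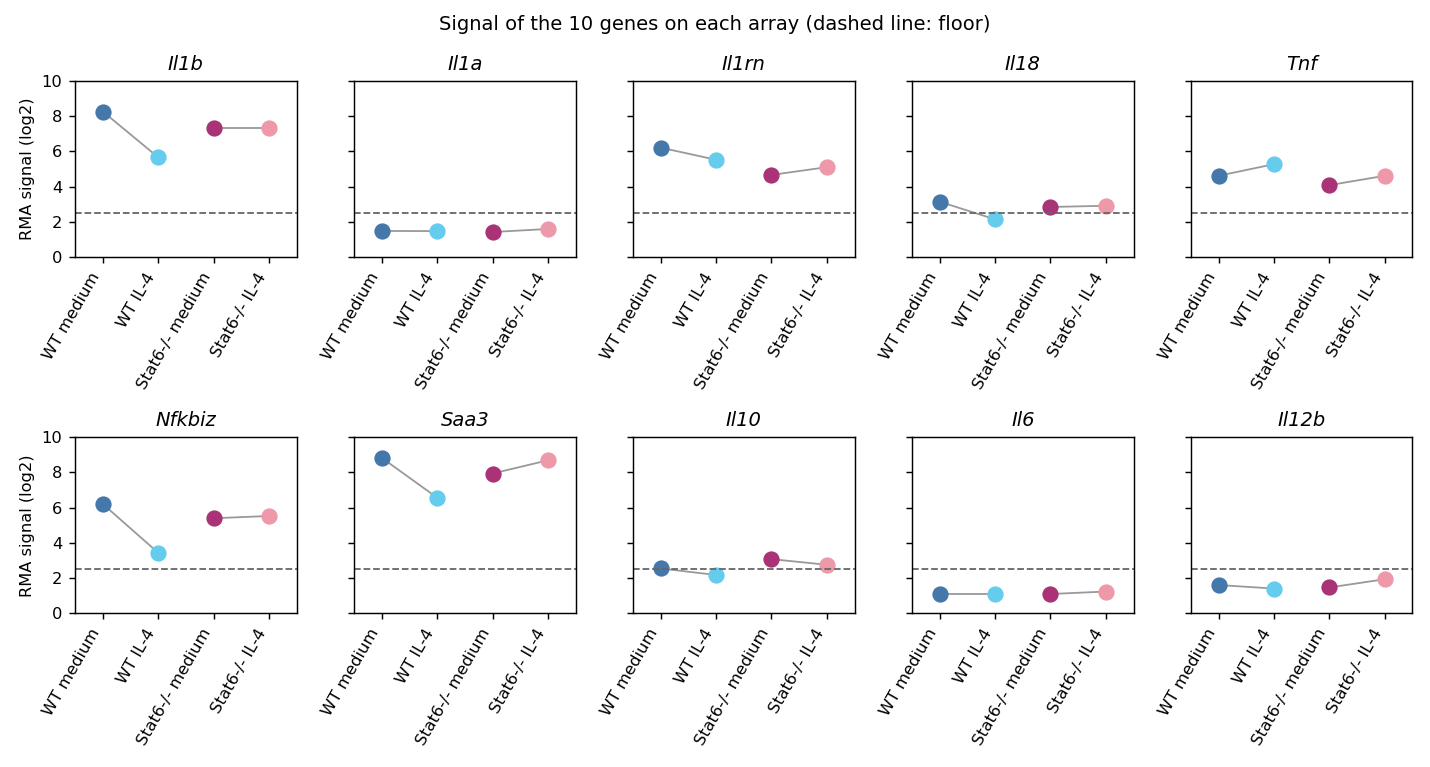
RMA signal (log2, vertical axis) of each of the 10 genes on the 4 arrays, with 1 point per array, a line joining both cultures of a genotype, and the floor of 2.52 dashed. Il1b, Nfkbiz and Saa3 are lowest in wild type with IL-4, while Il1a, Il6 and Il12b lie under the floor on every array.

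In wild-type macrophages, Nfkbiz, Il1b, Saa3 and Il18 fell with IL-4 by the 2-fold rule, and none of the 7 genes tested rose past it. Of the 7 genes tested, 4 were called lower, beside 6.78% of all 10282 genes tested, and 0 higher, beside 2.96%. The 5 genes above the floor on all 4 arrays held 3 of these calls. The median difference of the 7 genes was -1.0, against -0.11 over all genes, and the middle 95% of all genes lay between -1.42 and 1.08. Less RNA per cell and fewer cells of a kind cannot be told apart in such bulk samples. The stated purity of the sort was 99% for each sample.

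Nfkbiz, the nuclear IkappaB protein that NF-kappaB needs at its later targets, had a signal of 6.21 in wild-type cells kept in medium, against 3.44 after IL-4. The Stat6-/- signals were 5.40 in medium and 5.53 after IL-4. The wild-type array with IL-4 thus stood 1.96 below the next array, and the other 3 arrays lay within 0.81 of each other. The fall in wild type was 6.84-fold (-2.77), and 16 of 10282 genes, itself included, had a difference as low or lower.

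Il1b encodes the secreted interleukin-1 beta, which starts fever and recruits leukocytes. Its signal was 8.27 in wild type in medium, 5.67 after IL-4, and 7.31 on both Stat6-/- arrays. Wild type with IL-4 was again the lowest array, 1.64 below both Stat6-/- arrays. The fall was 6.06-fold (-2.60), a difference reached or passed by 29 genes.

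Saa3, a serum amyloid A protein that macrophages make in inflammation, stood at 8.83 in wild type in medium and 6.57 with IL-4, and at 7.94 and 8.69 in Stat6-/-. It was lowest in wild type with IL-4, 1.37 under the next array. The fall was 4.79-fold (-2.26), and 56 genes had a difference as low or lower. Its relatives Saa1, Saa2 and Saa4 had signals of 0.86 to 2.11, below the floor on every array. Signals of related copies can be shared between probesets, and this was not tested.

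Il18, an interleukin-1 family cytokine that is stored as a precursor, had signals of 3.15 and 2.15 in wild type in medium and with IL-4, and of 2.85 and 2.92 in Stat6-/-. Only the wild-type array with IL-4 lay under the floor. The difference of -1.0 met the rule by its edge, and against the floor the fall was at least 1.55-fold. It was -0.93 with quantile normalization applied again and -0.63 with low signals raised to the floor, and neither passed the rule.

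Upstream sequence is shown for Il1b, Saa3 and Il18, which were called lower with IL-4 in wild type. It is also shown for Il1rn and Tnf, which were not called. Nfkbiz, the gene with the largest fall, and Il10 had no upstream entry and are missing here. The sequences are the 250 bases before a transcription start, 5′ to 3′ on the strand of the gene, from RefSeq with build GRCm38.p6, which held an entry for 8 of the 10 genes. Il1b lies at chr2:129371140-129371389 on the minus strand, Saa3 at chr7:46715677-46715926 on the minus strand, Il18 at chr9:50554450-50554699 on the plus strand, Il1rn at chr2:24345041-24345290 on the plus strand, before 1 of its 3 starts, and Tnf at chr17:35202008-35202257 on the minus strand. Capitals mark matches, on either strand, to the STAT6 site (TTC and GAA with any 4 bases between) or the TATA box TATAAA.
Il1b: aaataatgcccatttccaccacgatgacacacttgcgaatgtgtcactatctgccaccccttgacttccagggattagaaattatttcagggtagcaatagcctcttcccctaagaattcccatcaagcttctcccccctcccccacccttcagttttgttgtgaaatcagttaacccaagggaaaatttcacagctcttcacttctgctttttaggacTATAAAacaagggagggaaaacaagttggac
Saa3: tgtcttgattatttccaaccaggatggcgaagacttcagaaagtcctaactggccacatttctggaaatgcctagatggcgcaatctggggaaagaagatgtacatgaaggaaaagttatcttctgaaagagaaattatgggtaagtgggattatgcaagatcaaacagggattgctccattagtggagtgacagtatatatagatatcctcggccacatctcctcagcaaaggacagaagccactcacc
Il18: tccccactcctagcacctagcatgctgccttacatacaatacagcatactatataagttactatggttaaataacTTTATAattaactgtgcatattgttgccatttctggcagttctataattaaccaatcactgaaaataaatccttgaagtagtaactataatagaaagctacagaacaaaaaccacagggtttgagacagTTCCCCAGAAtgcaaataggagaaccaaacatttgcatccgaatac
Il1rn: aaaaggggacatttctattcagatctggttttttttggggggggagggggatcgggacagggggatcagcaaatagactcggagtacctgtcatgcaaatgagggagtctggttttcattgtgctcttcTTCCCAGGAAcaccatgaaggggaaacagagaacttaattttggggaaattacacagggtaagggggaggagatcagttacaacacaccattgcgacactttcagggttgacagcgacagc
Tnf: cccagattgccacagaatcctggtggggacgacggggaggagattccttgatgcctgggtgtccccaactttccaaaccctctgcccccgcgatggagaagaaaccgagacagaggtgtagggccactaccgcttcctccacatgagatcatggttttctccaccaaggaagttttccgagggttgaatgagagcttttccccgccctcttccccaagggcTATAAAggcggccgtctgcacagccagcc

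A STAT6 site was found upstream of Il18 and Il1rn, that is in 2 of the 8 genes. By window it was found in 3 of the 10 windows of these genes, beside 5.85% of 32841 windows of this length. The match upstream of Il18 was TTCCCCAGAA, at -46 to -37 from the start. In Il1rn it was TTCCCAGGAA, at -121 to -112 from the start shown, and the same stretch lay at -201 to -192 from the neighbouring start. The window of the remaining Il1rn start held no match. The TATA box was matched in 4 of the 8 genes, or 4 of the 10 windows, and in 12.4% of all windows. It lay at -32 to -27 in Il1a, at -31 to -26 in Il1b and at -29 to -24 in Tnf. In Il18 the match lay on the opposite strand, at -175 to -170. The kappaB consensus motif was matched in 1 of the 8 genes, Il6, or 1 of the 10 windows, and in 3.9% of all windows. The STAT site with any 3 bases between TTC and GAA matched 0 of the 10 windows and 7.02% of all windows. No match overlapped another. The matches describe the letters of these windows and were not set against binding data.

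Il1rn and Tnf did not pass the rule with IL-4 in wild type. Il1rn had signals of 6.22 and 5.53 in wild type in medium and with IL-4, and of 4.67 and 5.11 in Stat6-/-. Both wild-type arrays were above both Stat6-/- arrays, and the difference with IL-4 in wild type was -0.69. Tnf, the early cytokine that activates endothelium and other macrophages, was at 4.62 and 5.28 in wild type and at 4.09 and 4.62 in Stat6-/-. It was the 1 tested gene of the set with a positive difference in wild type, 0.66, inside the middle 95% of all genes. The wild-type differences of Tnf and Il1b thus had opposite signs.

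Il10, whose product restrains inflammatory cytokines, was near the floor. Its signals were 2.55 and 2.18 in wild type in medium and with IL-4, and 3.08 and 2.76 in Stat6-/-. Both Stat6-/- arrays were above both wild-type arrays, with differences of 0.53 in medium and 0.58 with IL-4, which did not pass the rule. With IL-4 the difference was -0.37 in wild type and -0.32 in Stat6-/-.

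Il1a, Il6 and Il12b stayed under the floor on all 4 arrays. Il1a, which lies next to Il1b in the genome and encodes the other interleukin-1, was at 1.43 to 1.60. Il6 was at 1.08 to 1.24, and Il12b, the shared subunit of IL-12 and IL-23, at 1.41 to 1.94. The 95th percentile of 1015 olfactory receptor genes, taken as a gauge of background, was 1.92 to 2.07, above each of these genes on each array. No fold is given for them, and a change below this level would not have been detectable.

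Cell type markers also moved in wild type with IL-4. Of the 11 macrophage markers, 5 were lower with IL-4, led by Cd14 (-2.74) and Cx3cr1 (-1.82). The summed signal of this list was 13.43 in wild type in medium and 12.81 with IL-4, and 13.26 on both Stat6-/- arrays. Of 7 T cell markers on the array, 2 could be tested and both fell, Cd4 by 2.42. Cd28 was at least 11.9-fold lower, a bound set by the floor. The summed signal of the T cell list was 7.07 and 4.98 in wild type and 7.12 and 6.90 in Stat6-/-. Its fall was that of Cd28 and Cd4, as the other markers were near or under the floor on every array. Of 11 neutrophil markers 2 could be tested. Mmp8 rose (1.38), and Ngp was at 2.79 and 1.76, the latter under the floor, which is at least 1.21-fold lower, while Ly6g was at 1.41 or less on every array. The neutrophil sum was 6.16 and 6.92 in wild type and 5.97 and 5.95 in Stat6-/-. Mmp8, at 5.01 and 6.39 in wild type, was the only marker of the list above the floor on all 4 arrays. Fibroblast markers summed to 5.23 to 5.40 with 0 of 4 tested genes called, B cell markers to 4.09 to 4.30 with 0 of 1, and dendritic cell markers to 4.60 to 4.76 with 0 of 1. Basophil and mast cell markers summed to 4.59 to 4.78, and none reached the floor on a wild-type array, so that no call was possible. Their part in the falls of Nfkbiz, Il1b and Saa3 was not tested.

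In Stat6-/- macrophages none of the 7 tested genes passed the rule with IL-4, where 0.355% of 10410 genes did in either direction. The middle 95% of all genes lay between -0.60 and 0.61. Il1b had the same signal in both cultures, and Nfkbiz differed by 0.13 and Il18 by 0.07. Saa3 had the largest difference of the set, 0.75, from 7.94 to 8.69, and 113 genes had one as high or higher. Tnf (0.53) and Il1rn (0.45) lay inside the middle range. Of the 7 tested genes, 6 had a difference above 0 and Il10 one below it.

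**Figure D2:**
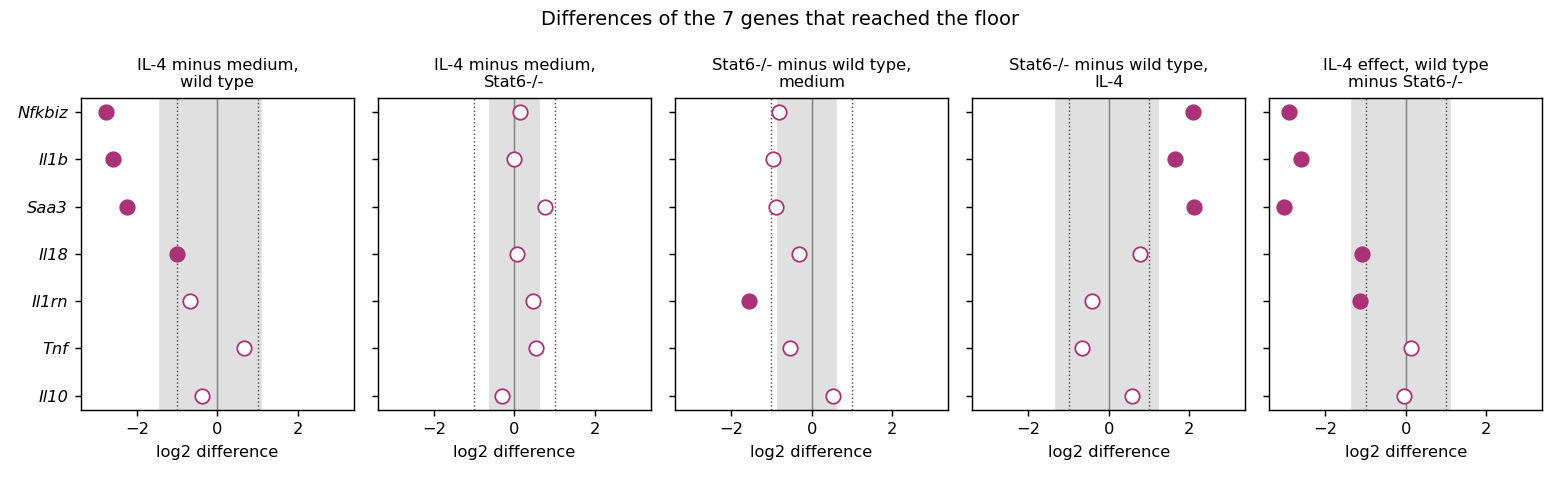
Log2 differences (horizontal axis) of the 7 genes that reached the floor, in 5 comparisons of the 4 arrays. Filled points passed the 2-fold rule (dotted lines), and the grey band holds the middle 95% of all tested genes. Nfkbiz, Il1b and Saa3 lie left of the band with IL-4 in wild type and right of it when Stat6-/- is set against wild type with IL-4.

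The genotypes were then set against each other in medium, to show what differed without IL-4. Il1rn was lower in Stat6-/- by 2.93-fold (-1.55), from 6.22 to 4.67, and 15 of 10299 genes, itself included, had a difference as low or lower. It was the 1 of 7 tested genes called lower, beside 1.15% of all genes. Il1b (-0.96), Saa3 (-0.89) and Nfkbiz (-0.81) did not pass the rule. The middle 95% of all genes ran from -0.83 to 0.61, so that Il1b and Saa3 lay just outside it and Nfkbiz just inside. For Il1b the difference became -1.02, past the rule, with arrays shifted to one median. Tnf was at -0.53 and Il18 at -0.31, while Il10 had the 1 positive difference, 0.53. The median of the 7 genes was -0.81, and that of all genes -0.11.

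With IL-4 the order of the genotypes was the other way for the genes that had fallen in wild type. Saa3 was 4.37-fold (2.13), Nfkbiz 4.27-fold (2.09) and Il1b 3.11-fold (1.64) higher in Stat6-/- than in wild type. These were 3 of 7 tested genes called higher, beside 4.01% of 10433 genes, and the middle 95% of all genes ran from -1.30 to 1.23. Il18 (0.77) and Il10 (0.58) did not pass the rule, nor did Il1rn (-0.41) and Tnf (-0.66), which were lower in Stat6-/- in both cultures. The comparisons share arrays and are set side by side as values only.

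Subtracting the IL-4 difference in Stat6-/- from that in wild type gave a difference of effects of -3.02 for Saa3, -2.91 for Nfkbiz and -2.60 for Il1b. At most 19 of 10798 genes had a value as low or lower than any of these. Il1rn (-1.14) and Il18 (-1.08) also passed the rule, which made 5 of 7 genes called lower, beside 5.77% of all genes. The value of Il1rn joined a wild-type difference of -0.69 with one of 0.45 in Stat6-/-, neither of which passed alone, and it was -0.99 with the intensity trend removed. The value of Il18 was -0.71 with low signals raised to the floor. For Tnf the difference of effects was 0.13 and for Il10 -0.05. Tnf differed with IL-4 by 0.66 in wild type and 0.53 in Stat6-/-, and 1 array per group gives no interval for the difference between these values.

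The genes around these cytokines were taken from 7 lists of their receptors, signalling proteins, inhibitors, processing enzymes and related secreted factors. In wild type 13 of 69 tested genes of these lists changed with IL-4, 11 lower and 2 higher, with a median of -0.33. Over all genes 9.74% changed in either direction, 6.78% lower and 2.96% higher. In Stat6-/- 0 of 72 did, with a median of -0.08, beside 0.355% of all genes.

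Among receptors and binding proteins, 1 of 10 tested genes rose in wild type and 2 fell, beside 2.96% and 6.78% of all genes. Il6st, the gp130 chain through which IL-6 and its relatives signal, rose from 7.42 to 9.51. Il10ra, the ligand-binding IL-10 receptor chain, fell from 7.59 to 5.97, and Il6ra, the IL-6 binding chain, from 7.03 to 5.88. With the intensity trend removed, Il6ra no longer passed the rule. In Stat6-/- the same genes were at 7.09 and 7.25 (Il6st), 7.40 and 7.01 (Il10ra) and 7.51 and 7.28 (Il6ra) in medium and with IL-4. Il18bp, a secreted decoy for IL-18, was at 5.69 and 5.09 in wild type and 5.66 and 6.24 in Stat6-/-, a difference of effects of -1.17. The TNF receptors Tnfrsf1a (-0.43) and Tnfrsf1b (-0.18) and Il1r2 (-0.18), the decoy receptor for interleukin-1, did not pass the rule in wild type.

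Among 15 adaptors and kinases of the interleukin-1 and Toll-like receptor pathway, 4 fell in wild type and 0 rose. Over all genes the shares were 6.78% and 2.96%. Irak3, an inhibitory kinase relative that damps the pathway, fell from 7.19 to 5.32, and Irak2, a signalling kinase of the MyD88 complex, from 5.53 to 4.07. Map3k8, the kinase that links the pathway to ERK, went from 5.97 to 4.78. Tab2, chosen after its values were seen, fell by 1.03. Irak2 and Irak3 passed under every scaling tried, whereas Tab2 was lost with quantile normalization applied again and Tab2 and Map3k8 with the intensity trend removed. Tirap, which brings MyD88 to the membrane, was at 3.80 and 3.09 in wild type and 2.79 and 3.31 in Stat6-/-, a difference of effects of -1.22. Myd88 itself was at 7.15 and 6.78 in wild type, a difference of -0.36.

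NF-kappaB subunits and IkappaB proteins held 0 of 9 genes past the rule with IL-4 in wild type, beside 9.74% of all genes. Their differences lay between -0.58 and 0.69. With 9 genes and that share, a count of 0 does not set the list apart. Rela, the main activating subunit, was at 5.86 and 5.98 in wild type, and Nfkbia, the classical inhibitor, at 7.57 and 7.25. Nfkbie, another IkappaB, had a difference of effects of 1.04, from 0.69 in wild type and -0.35 in Stat6-/-. Nfkbiz, which belongs to the same protein family, fell with IL-4 in wild type, and the listed IkappaB genes did not pass the rule there. Both held under every scaling tried. The difference between them has no test.

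Inhibitors and mRNA decay factors held 1 of 14 genes past the rule with IL-4 in wild type. That count is near the share over all genes, 9.74%. Rc3h1, which encodes Roquin, a protein that destabilises cytokine mRNAs, fell from 6.33 to 5.20, a call that was lost with quantile normalization applied again and with the intensity trend removed. Tnfaip3, the ubiquitin-editing inhibitor A20, was at 6.76 and 6.70, and Zfp36, which speeds decay of Tnf mRNA, at 8.05 and 7.22, a difference of -0.83.

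Of 13 genes of cytokine processing and release, 2 fell and 1 rose in wild type, beside 6.78% and 2.96% of all genes. Nlrp3, the sensor of the inflammasome that matures interleukin-1 beta and IL-18, fell from 5.57 to 3.91, while it was at 4.92 and 5.05 in Stat6-/-. Nlrc4, another inflammasome sensor, fell from 4.28 to 2.92. Pycard, the adaptor that joins sensor and caspase, rose from 4.04 to 5.32, and Casp1, the caspase itself, was at 6.00 and 5.81. Casp4, a caspase that senses lipopolysaccharide in the cytosol, had a difference of effects of -1.21.

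Of the acute phase list, 4 of 11 genes reached the floor and 0 passed the rule in any comparison. Only 2 could be tested with IL-4 in wild type, where 9.74% of all genes were called. Lcn2, a siderophore-binding protein often induced with Saa3, was at 2.83 and 2.60 in wild type and at 3.03 and 3.02 in Stat6-/-, and Hp, haptoglobin, at 3.57 to 3.94. Among other cytokines, 2 of 6 tested genes fell in wild type, beside 6.78% of all genes. Il15, which sustains NK and memory T cells, fell from 5.49 to 3.46, and Ebi3, a subunit of IL-27, from 6.35 to 4.50. Osm, a cytokine of the IL-6 family, was at 3.37 and 2.47 in wild type and 3.35 and 3.87 in Stat6-/-, a difference of effects of -1.42.

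**Figure D3:**
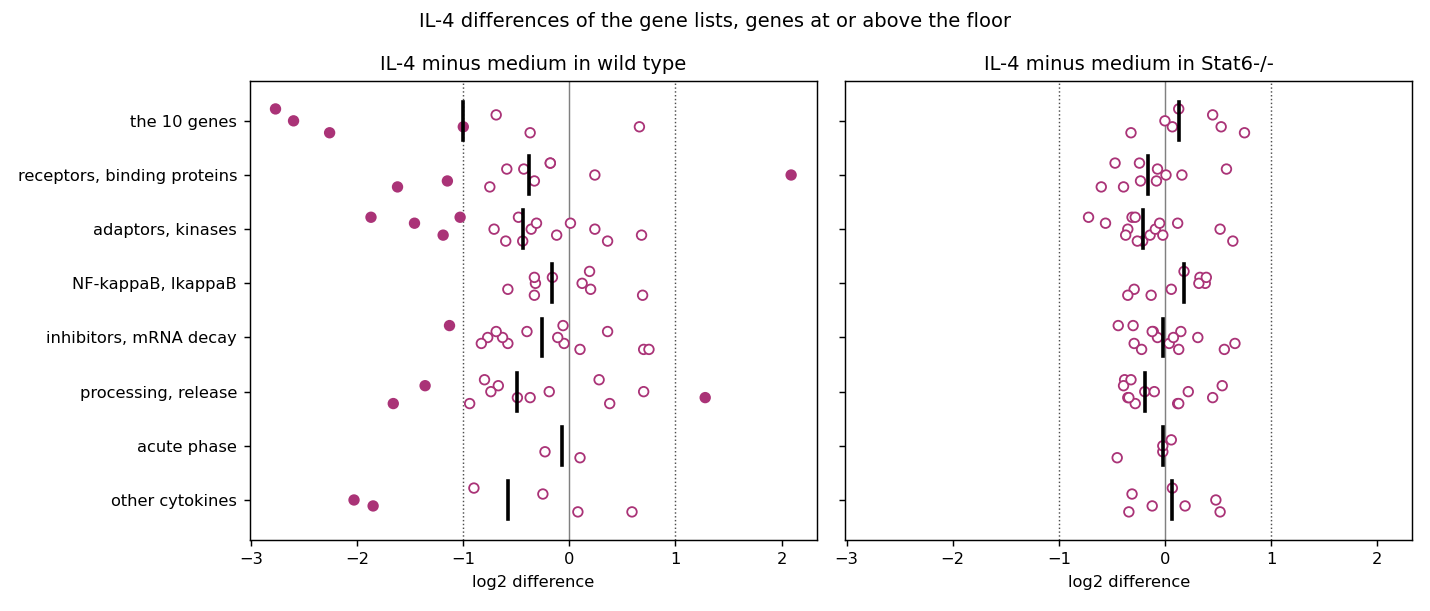
Log2 difference with IL-4 (horizontal axis) of the genes of each list that could be tested, in wild type (left) and Stat6-/- (right). Filled points passed the 2-fold rule (dotted lines) and black bars are medians. The 10 genes have their median at -1.0 in wild type and 0.13 in Stat6-/-. No gene of these lists passed the rule in Stat6-/-, where 0.355% of all genes did.

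The shape over the 4 arrays set the 7 tested genes into few patterns. Il1b, Il18, Nfkbiz and Saa3 had the same order, with wild type in medium highest, then Stat6-/- with IL-4, Stat6-/- in medium and wild type with IL-4. For Il1b both Stat6-/- arrays and for Il18 and Nfkbiz the middle pair differed by 0.13 or less, so that the middle of the order is not firm. Its top is not firm for Saa3 and Il18, where the highest array stood 0.13 and 0.23 above the next. Likeness was measured as the root mean square difference of signals centred on each gene's mean over the 4 arrays. This difference is 0 for the same shape at the same size, and genes of the same shape but unlike span do not reach 0. It was 0.17 between Il1b and Nfkbiz, 0.285 between Nfkbiz and Saa3 and 0.324 between Il1b and Saa3, against 1.26 between Il1b and Tnf and 0.956 between Il1b and Il1rn. Despite the same order, Il18 lay 0.567 from Il1b, 0.658 from Nfkbiz and 0.54 from Saa3, and nearer to Il10, at 0.308. The measure keeps span, which was 1.0 for Il18 and 0.9 for Il10, against 2.6 for Il1b, 2.77 for Nfkbiz and 2.26 for Saa3. Il10 had another order, with Stat6-/- in medium highest, so its nearness to Il18 is not a likeness of shape alone.

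Of 10797 other genes above the floor, the nearest to Nfkbiz were Gpr162 (0.0897), Cd4 (0.126) and the interferon-induced Ifit3b (0.13), and the median over all was 1.02. The nearest to Il1b were 6330407A03Rik (0.122), Nfkbiz and the interferon-induced Mx2 (0.176), with a median of 0.923. For Saa3 they were Il15 (0.156), Cd4 (0.207) and Gm6377 (0.211), with a median of 0.896. Il18 was nearest to Gde1 (0.0211), Rapgef2 (0.0277) and Klhl7 (0.0318), with a median of 0.396, a smaller median than that of Il1b, Nfkbiz or Saa3. The nearest to Tnf were Zpr1 (0.0216), Fam162a (0.0371) and Tomm20 (0.0392), with a median of 0.469. Il1rn was nearest to Pclaf (0.0813), Smarcad1 (0.0989) and the scavenger receptor Marco (0.138), with a median of 0.579. Marco had signals of 3.95 and 3.29 in wild type and 2.34 and 3.14 in Stat6-/-, the order of Il1rn. Likeness over 4 arrays is a description of shape and size together.

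**Figure D4:**
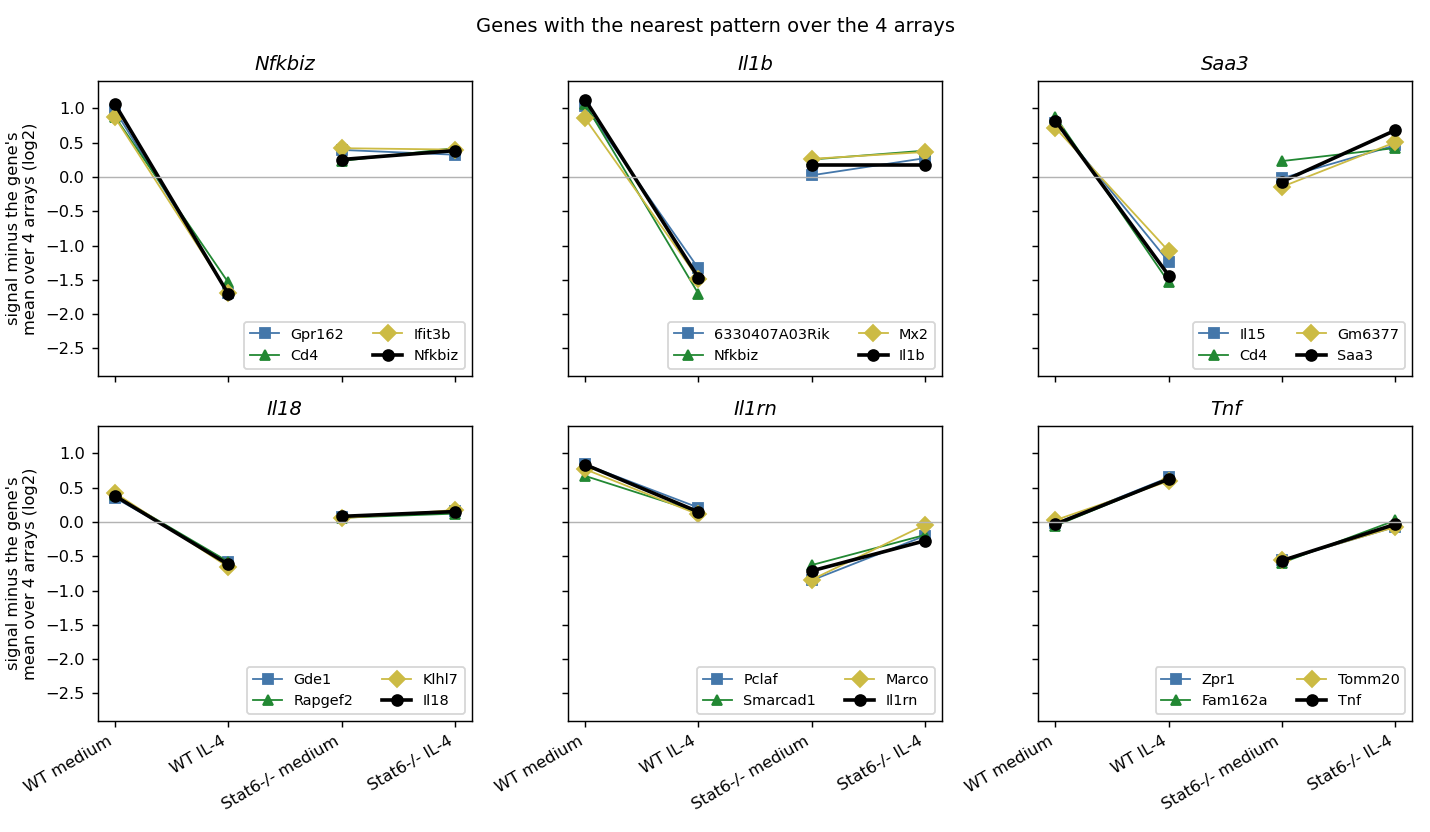
Signal minus the gene's own mean over the 4 arrays (log2, vertical axis) for 6 of the genes in black and for the 3 genes nearest to each in colour, 1 point per array, with lines joining both cultures of a genotype. Nfkbiz, Il1b and Saa3 drop in wild type with IL-4, Il1rn is lowest in Stat6-/- in medium, and Tnf is highest in wild type with IL-4.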

How the data were processed

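RNA of sorted macrophages was hybridised to 4 Affymetrix whole-transcript arrays, 1 per group. The deposited values are log2 signals, 1 for each probeset on each array, which the authors made with RMA in Affymetrix Expression Console per the submitters' processing notes. RMA corrects background, equalises the arrays by quantiles and draws low signals together, which understates changes of weak genes. Tool versions and genome build: not given in the sources used here.

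Of 35557 probesets, 21789 had 1 gene symbol in the platform annotation, 1621 several, and 12147 were not named there. Each gene was represented by its probeset with the highest mean. Differences and calls were computed in Python 3.11.15 and tested on simulated data. No p-value was computed. Of 171 list entries, 161 matched the array. Named were all 10 genes, Stat6, up to 4 genes per list past the rule in wild type or in the difference of effects, and the 3 nearest shapes. Other list and marker genes with values were chosen after their values were seen. The genes, lists and rules were chosen with earlier results of these data known. Alternatives covered normalization, floor, probeset and rule of size.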

Additional observations from a re-analysis of the deposited data

Results flagged for a closer look

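In 5 genes the IL-4 difference had opposite signs in the genotypes, with 1 array per group, and the difference between the effects passed the 2-fold rule. This difference between genotypes was not tested. The difference of effects, wild type minus Stat6-/-, was -2.60 for Il1b, -1.14 for Il1rn, -1.08 for Il18, -2.91 for Nfkbiz and -3.02 for Saa3. In Stat6-/- the IL-4 difference of Il1b was under 0.01 in size, so its sign there carries no weight. For Il18 the sign in Stat6-/- rests on a difference of 0.07.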

How the results depend on the processing

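With 10 alternatives the counts of changed genes among the 10 stayed within 1.5 times, except in these cases. With a 1.5-fold rule, 1 gene was called with IL-4 in Stat6-/- (0 by the 2-fold rule), 4 for the genotypes in medium (1) and 5 for the genotypes with IL-4 (3). With a 3-fold rule, 0 were called for the genotypes in medium (1) and 3 for the difference of effects (5). With arrays shifted to one median, 2 were called for the genotypes in medium. Fewer or more genes pass a stricter or laxer rule by construction. Of 400 single values under 8 alternatives, 393 kept their side of the rule, 6 lost a call and 1 gained one. Part of this was fixed in advance. Each of the 10 genes had 1 probeset, so the probeset alternatives returned the main values. Il1a, Il6 and Il12b could be called only with no floor. Sign changes were 4, of uncalled values at 0.05 or less in size: Il6 between the genotypes in medium (0.01) became -0.06, -0.05 and -0.35 under the normalizations, and the difference of effects of Il10 (-0.05) became 0.29 with signals under the floor raised to it. The 6 were values of Il18 and Il1rn, and the 1 was Il1b. The falls of Nfkbiz, Il1b and Saa3 in wild type ran from -2.78 to -2.58, -2.60 to -2.45 and -2.26 to -2.14 over the normalizations. Quantile normalization applied again moved the median of all genes in wild type from -0.11 to 0.02 and the calls from 304 higher and 697 lower to 403 and 488. With the intensity trend removed they were 418 and 490. For the genotypes in medium, the quantile step moved the calls from 31 higher and 118 lower to 42 and 71, and for the difference of effects from 346 and 623 to 420 and 461. No paired analysis was possible because each group was 1 array and the labels give no replicate numbers. Signal near background limits Il10 and Il18, and Il1a, Il6 and Il12b gave no change that could be read.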

Other observations

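A pair of genes of the inhibitor lists, chosen after their values were seen, stood lower in Stat6-/- than in wild type with IL-4, opposite to Il1b, Nfkbiz and Saa3. Zc3h12c, a relative of the RNase gene Zc3h12a that cuts cytokine mRNAs, had signals of 5.13 and 5.88 in wild type in medium and with IL-4, and of 4.37 and 4.15 in Stat6-/-. Its difference with IL-4 present was -1.73, and -0.76 in medium. Nfkbie was at 5.54 and 6.23 in wild type and 5.01 and 4.66 in Stat6-/-, with a difference of -1.57 with IL-4. Zc3h12a itself was at 4.36 and 4.30 in wild type and 4.18 and 3.89 in Stat6-/-, and did not pass the rule in any comparison.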
